A study of Mus musculus with 4 samples.

Results

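In mouse embryonic stem cells, 468 genomic regions carried moderate REST enrichment together with Ring1b enrichment, and lacked a call for the heterochromatin mark H4K20me3. They made up 17.3% of the 2709 REST regions (exact 95% interval 15.9% to 18.8%). A region was made of overlapping windows of 1000 bp in which the reads of a library reached at least 5 times the background, at a Poisson upper-tail probability of at most 1e-09. A region belonged to the set if its highest REST window stayed below 20 times background, if it overlapped a Ring1b region by at least 1 bp and if it overlapped no H4K20me3 region. The regions were thus chosen by their measured REST, Ring1b and H4K20me3 levels, and those values are given as a description. The reads of MCAF1, the shape of the REST signal inside the regions and the place of the regions along the genome were not used to choose it.

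Chromatin immunoprecipitation was followed by sequencing in V6.5 murine embryonic stem cells, a line of C57BL/6-129 strain that was kept on irradiated feeder fibroblasts and passaged off them, on gelatin, for 1 passage (REST) or 2 passages (Ring1b, MCAF1, H4K20me3). The labels name no treatment, there was 1 library for each of the 4 antibodies, and neither an input nor a control antibody library is analysed here. Gel selection was at 150 to 300 bp for Ring1b and MCAF1 and at 150 to 350 bp for REST and H4K20me3. The libraries held between 3083311 (Ring1b) and 11023569 (MCAF1) distinct nuclear reads with 1 location. Every difference below compares these libraries or sets of regions in them, with no replicate check, and the exact 95% intervals cover counting error only. A ChIP of a cell population also cannot tell binding in fewer cells from weaker binding in each cell, and the cell type was not checked, since the reads carry no transcript levels.

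REST, also called NRSF, is a zinc finger repressor that binds a long DNA element, RE1, near many neuronal genes and recruits corepressors to keep them off outside neurons. Ring1b is the catalytic subunit of Polycomb repressive complex 1, which ubiquitinates histone H2A and covers CpG-rich promoters of silent developmental genes in embryonic stem cells. MCAF1, or ATF7IP, is a partner of the histone H3 lysine 9 methyltransferase SETDB1, and trimethylated lysine 20 of histone H4 marks constitutive heterochromatin such as pericentromeric satellites. A factor bound at a short DNA element usually gives a narrow ChIP peak with plus-strand and minus-strand reads set apart by about a fragment length. A complex spread over an island or domain gives a broader one. Gene names and underlying bases are not given here, because no annotation or genome of the mm8 build was used.

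REST and Ring1b reached similar levels in the 468 regions. In the highest REST window of each region, REST read numbers ran from 14 to 63 with a median of 19, and REST folds over background from 5.88 to 19.8 with a median of 9.36. In the same windows Ring1b had 5 to 109 reads with a median of 21, and folds from 1.83 to 36.9 with a median of 10.4. The Ring1b fold was the higher of both in 295 regions, where the choice of regions capped the REST fold and not the Ring1b fold. For comparison, 0.1% of all covered windows passed the calling limit for REST and 0.625% did for Ring1b. A window at the genome mean needed 14 reads for a call in either library. Across the 468 regions REST and Ring1b folds had a Spearman correlation of 0.317 (Pearson 0.254). This is a description of regions that were truncated by calls in both libraries and share their local read density.

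**Figure D1:**
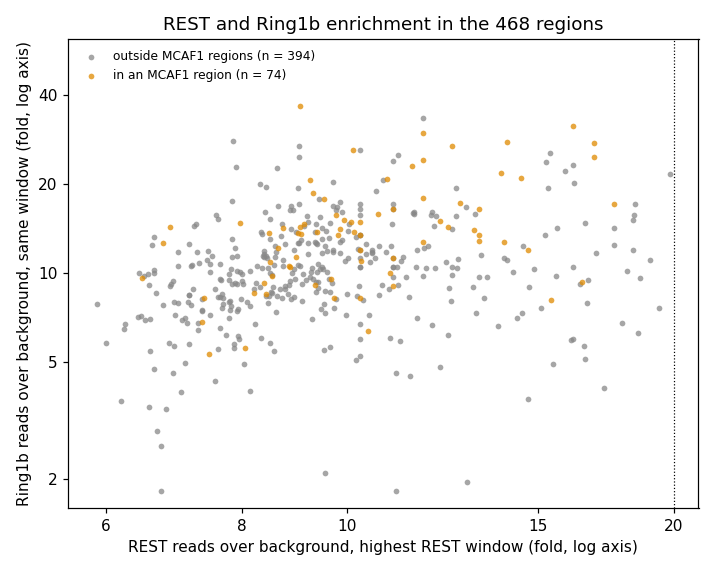
REST fold (x axis) against Ring1b fold (y axis) in the highest REST window of each of the 468 regions, both as reads over background on log axes; orange points are the 74 regions that overlap an MCAF1 region, and the dotted line is the upper limit of 20 times. The medians are 9.36 for REST and 10.4 for Ring1b, and orange points are more frequent among high Ring1b folds.

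REST folds ran without a gap across the upper limit. Just below the upper limit lay chr13:77901501-77903000 (mm8, 19.8-fold REST), chr9:44633001-44634500 (19.4-fold) and chr9:49092501-49094000 (19.0-fold). Just above it were chr11:100574501-100576000 with 60 REST reads (20.4-fold), chr8:96702001-96703500 with 35 (20.9-fold) and chr18:73658001-73659500 with 29 (21.0-fold). The lowest REST folds were at chr10:79257001-79258000 with 20 REST reads (5.88-fold) and a pair on chromosome 8, chr8:73645501-73646500 (6.00-fold) and chr8:73141501-73142500 (6.19-fold), each with 21 reads.

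The 10 regions with the highest smaller fold of the pair were of several kinds. At chr13:77901501-77903000 the highest window held 27 REST reads, 29 Ring1b reads, 18 MCAF1 reads and 11 H4K20me3 reads. That is 19.8-fold REST (13.1 to 28.9) and 21.6-fold Ring1b (14.5 to 31.1), beside 3.75-fold MCAF1 (2.23 to 5.93) and 3.25-fold H4K20me3 (1.62 to 5.81). Its REST reads spanned only 264 bp, against a median span of 812.5 bp over the set. Repeated positions were common in this region. With repeats kept it held 44 REST reads (27 distinct), 57 Ring1b reads (30 distinct), 55 MCAF1 reads (18 distinct) and 15 H4K20me3 reads (11 distinct). Reads with 2 locations fell there too, 8 from REST, 5 from Ring1b, 12 from MCAF1 and 2 from H4K20me3. The folds above count 1 read per position and strand, and the part of repeats in the short span was not tested.

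At chr11:35641501-35643000 there were 32 REST and 16 Ring1b reads (18.1-fold and 10.2-fold). MCAF1, with 8 reads (1.18-fold, 0.510 to 2.33), and H4K20me3, with 7 (0.546-fold to 2.80-fold), were near background. At chr2:109476001-109477500 REST had 24 reads (17.6-fold) and Ring1b 19 (14.2-fold), inside a Ring1b region of 5500 bp, while H4K20me3 had 3 reads (0.886-fold, 0.183 to 2.59). MCAF1 had 13 reads there (2.71-fold). At both sites REST and Ring1b stood well above the other 2 libraries.

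At chr5:112815001-112817000 the proteins sat side by side. The highest REST window held 41 REST reads (17.2-fold, 12.4 to 23.4) and 8 Ring1b reads (4.07-fold, 1.76 to 8.03), and the highest Ring1b window, 1500 bp away, held 53 Ring1b reads (26.9-fold, 20.2 to 35.2). A like offset of 1500 bp was found at chr11:4848501-4850000, with 41 REST reads and 14 Ring1b reads in the highest REST window and 42 Ring1b reads in the highest Ring1b window.

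By contrast, all 4 libraries were raised at chr10:33708501-33710000. It had 23 REST reads (16.9-fold, 10.7 to 25.4), 33 Ring1b reads (24.6-fold, 16.9 to 34.6), 34 MCAF1 reads (7.09-fold, 4.91 to 9.91) and 19 H4K20me3 reads (5.61-fold, 3.38 to 8.77), the last just short of a call. The region at chr6:3150501-3152000 was also raised in all 4 (17.6-fold REST, 17.2-fold Ring1b, 5.42-fold MCAF1, 4.73-fold H4K20me3), and its REST reads spanned 196 bp. The others were chr18:25895001-25896500 (18.4-fold REST, 17.2-fold Ring1b), chr16:5061501-5063000 (18.4-fold and 15.1-fold) and chr18:56064001-56065500 (16.9-fold and 27.6-fold). On chromosome 18 the first of these had MCAF1 at 3.34-fold and the second at 5.63-fold, and the second lay in an MCAF1 region.

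**Figure D2:**
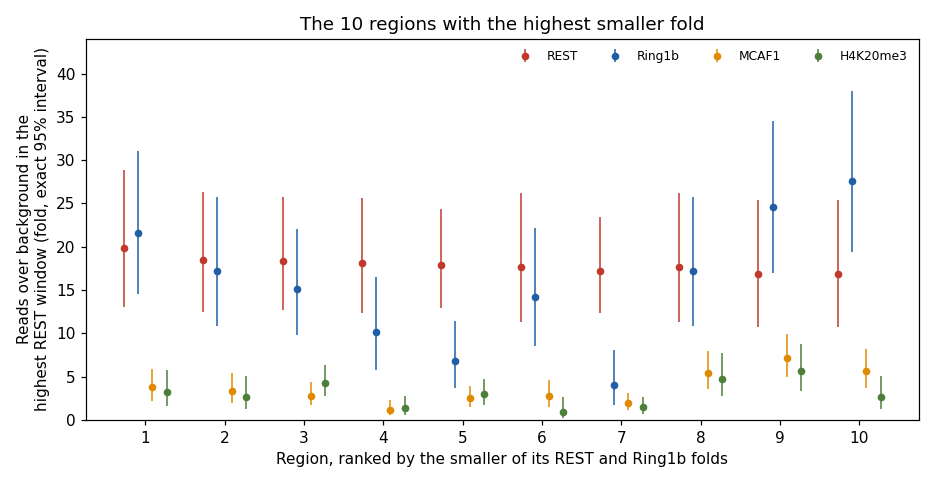
Fold over background of each library (points, colour by library) with exact 95% Poisson intervals (bars) in the highest REST window of the 10 regions, in order of the smaller of their REST and Ring1b region folds. REST lies between 16.9 and 19.8 in all 10, Ring1b varies from 4.07 to 27.6, and MCAF1 and H4K20me3 stay lower than REST throughout.

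The REST signal inside the 468 regions was much less sharp than at REST regions without Ring1b. Strand pairing was taken as the number of plus-strand and minus-strand REST read pairs 60 to 140 bp apart, per bp of offset, over the number 500 to 1000 bp apart. It was 5.25 in the set (5.10 to 5.41; 8469 pairs over 9977). The ratio was 16.5 (16.3 to 16.8) in the 1217 REST regions below 20 times that overlapped neither Ring1b nor H4K20me3. It was 2.52 (2.45 to 2.58) in the 528 that overlapped both, and 46.2 in the 66 REST regions of 20 times or more with Ring1b and no H4K20me3. Among these stronger regions the 206 without Ring1b or H4K20me3 were no sharper, at 42.8 (42.1 to 43.6). Pairs share reads, so these intervals are too narrow. Offsets are between the leftmost bases of the reads on both strands, so the distance between their 5′ ends is longer by about a read. In the set, pairing was highest at offsets of 100 to 109 bp (5.81), and in REST regions without Ring1b or H4K20me3 below 20 times at 90 to 99 bp (17.4).

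**Figure D3:**
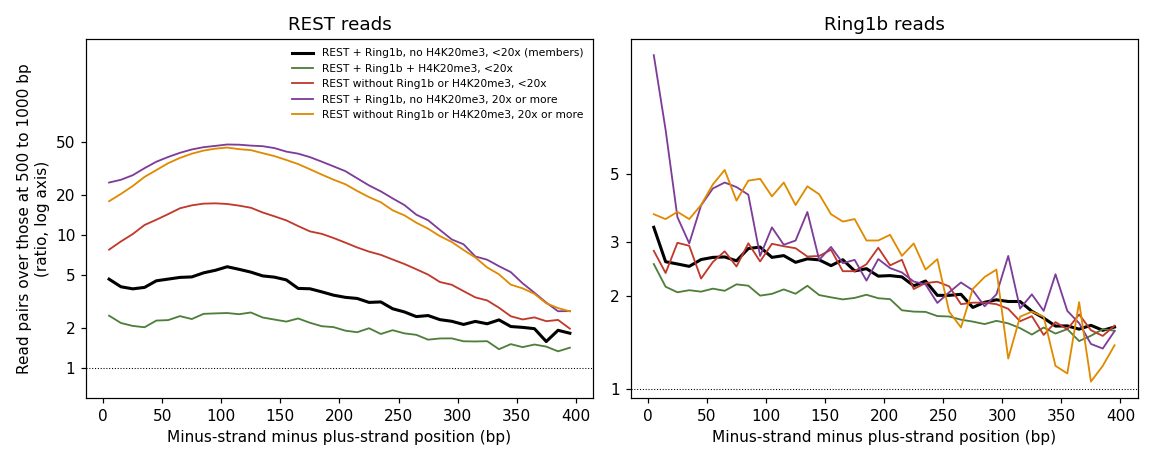
Number of read pairs at each distance between plus-strand and minus-strand position (x axis, bp), over the number at 500 to 1000 bp (y axis, ratio on a log axis), for REST reads (left) and Ring1b reads (right) in 5 sets of REST regions. For REST the 468 regions (black) peak at 5.81 near 100 bp, between the regions that also have H4K20me3 and those without Ring1b. For Ring1b, the highest ratios of the 5 sets at offsets of 60 to 140 bp run from 2.18 to 5.14. In the bin centred on 5 bp the Ring1b ratio is higher still in the 468 regions (3.35), in those that also have H4K20me3 (2.54) and in the stronger regions with Ring1b (12.1), but not in the other sets. The curves of the stronger REST regions, with few Ring1b reads, are uneven.

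This difference was also present at matched enrichment. Among regions with a REST fold from 10 to 15, pairing was 6.46 (6.13 to 6.81) in 140 regions of the set. It was 17.7 (17.3 to 18.2) in 518 REST regions without Ring1b or H4K20me3 and 2.48 (2.39 to 2.58) in 274 regions with both. The median REST read number in these groups was 19, 22 and 17. Within the set, pairing was 3.23 in the 156 regions with the lowest REST folds, 3.72 in the middle 156 and 8.10 (7.76 to 8.45) in the highest 156.

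Near pairs were unevenly spread over the set. The median region had 11 and 6 regions had 0, and the 47 regions with the most held 44.3% of them. In REST regions below 20 times without Ring1b or H4K20me3 the median was 27. Pairs were counted from distinct positions, so repeated copies of a read did not add to them.

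The spread of reads around the REST centre gave the same order among the sets below 20 times, while the stronger sets with and without Ring1b changed places. Of the REST reads within 1000 bp of the mean read position of the highest window, 51.5% lay within 200 bp of it in the set (50.6% to 52.4%; 5979 of 11605 reads). The share was 74.0% (73.5% to 74.5%) in REST regions below 20 times without Ring1b or H4K20me3, 43.4% (42.6% to 44.3%) where both were called, and 88.7% (87.8% to 89.5%) in the 66 stronger regions with Ring1b only, beside 90.1% (89.6% to 90.6%) in the 206 stronger regions without either. The centre was also set from every other read of the highest window, and the share counted without those reads. For the sets in the same sequence the values were then 44.1%, 67.7%, 36.3%, 85.4% and 87.4%. All reads outside the highest window were kept in this count, which lowers the shares by construction. Per region, at least 70% of REST reads were central in 90 of the 468 (19.2%, 15.8% to 23.1%), against 813 of 1217 without Ring1b or H4K20me3 (66.8%, 64.1% to 69.4%).

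The central share of REST reads went more with the REST fold, which is counted from the same reads, than with the Ring1b fold. In the 117 regions with the most central REST reads the median REST fold was 11.1 and the median Ring1b fold 10.4. In the 117 with the least central reads these were 8.53 and 10.6. Across all 468 regions the Spearman correlation of the central share was 0.00476 with the Ring1b fold and 0.353 with the REST fold, a description over regions of unequal read number. Shared REST reads tie the central share to the REST fold in part by construction, and the choice of regions limited that fold. Both groups of 117 had similar shares in MCAF1 regions, 15.4% (9.38% to 23.2%) and 14.5% (8.70% to 22.2%).

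The distance between the REST and Ring1b maxima was largely set by the choice of regions, since both calls had to overlap and most were 1 to 2 kb wide on a grid of 500 bp. The highest windows of both were identical in 292 regions and at most 500 bp apart in 431. In 20 regions they were over 1000 bp apart, at most 11500 bp. Of the regions, 348 lay wholly inside a Ring1b region and 146 had exactly its boundaries.

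The Ring1b regions of the set had the usual median width, on a grid of 500 bp, but were wide less often than all Ring1b regions. Their median width was 1500 bp, as over all 10580 Ring1b regions, and 18 of the 468 regions (3.85%, 2.30% to 6.01%) lay in a Ring1b region wider than 3 kb. That share was 7.29% over all REST regions with Ring1b, 8.41% over all Ring1b regions and 3.85% (3.35% to 4.41%) over the 5216 Ring1b regions without a REST or H4K20me3 region. It was 8.09% of the 173 regions found at a probability of 1e-12. The REST regions themselves were 1000 bp wide in 272 cases, 1500 bp in 187 and 2000 bp in 9. The 3 widest by REST fold were chr11:80105501-80107500 (36 REST and 16 Ring1b reads), chr5:112815001-112817000 and chr2:121049001-121051000 (30 and 18 reads).

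In the strongest Ring1b regions of the set, REST lay within the Ring1b region but away from its maximum. The highest was chr10:84184001-84191500, a Ring1b region of 7500 bp with 197 Ring1b reads in its highest window (81.3-fold, 70.3 to 93.4). Its REST region, chr10:84184001-84185500, lay 4000 bp from that window and had 24 REST reads (11.5-fold, 7.39 to 17.2). On chromosome 2 a Ring1b region of 17000 bp, chr2:33450501-33467500, reached 57.6-fold Ring1b (50.2 to 65.8), and its REST region with 18 reads (7.86-fold) was 11500 bp away from the Ring1b maximum. The remaining 3 of the 5 highest, on chromosomes 7 (68.3-fold Ring1b), 18 (57.3-fold) and 13 (54.6-fold), had distances of 3500, 6000 and 2500 bp. Ring1b was also high in the highest REST windows of these 5, from 14.1-fold on chromosome 7 to 27.9-fold on chromosome 2. These 5 regions lay outside MCAF1 regions, as did 394 of the 468 (84.2%). Their MCAF1 folds ran from 1.70 to 4.56, around the set's median of 3.07.

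Averaged over the set, the Ring1b peak was broader than the REST peak. Within 200 bp of the REST centre, REST density was 23.5 times the genome mean (22.9 to 24.1) and Ring1b density 24.0 times (23.4 to 24.6). At 500 to 1000 bp, REST had fallen to 3.19 times (3.05 to 3.33) and Ring1b to 6.39 times (6.19 to 6.59), and at 3 to 5 kb they were at 1.83 and 2.64 times. The profile was centred on REST reads, which raises the REST value at the centre. In REST regions below 20 times without Ring1b or H4K20me3, REST fell from 35.8 times at the centre to 2.12 times at 500 to 1000 bp, and Ring1b from 7.40 to 1.84 times.

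**Figure D4:**
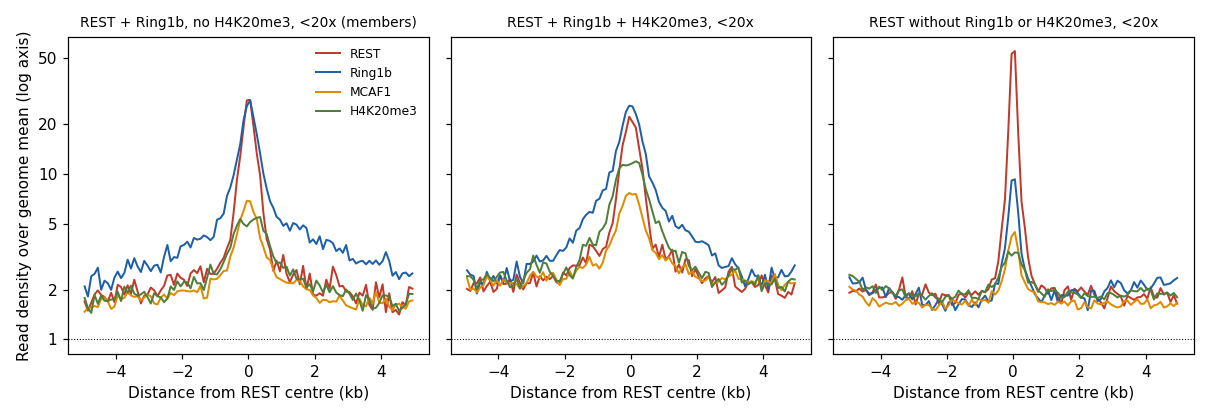
Read density of the 4 libraries (lines) over the genome mean (y axis, log scale) against distance from the REST centre (x axis, kb, bins of 100 bp) in the 468 regions (left), the REST and Ring1b regions that also have H4K20me3 (middle) and the REST regions without either (right), all below 20 times. In the left panel REST and Ring1b have similar centres at 23.5 and 24.0 times, with Ring1b broader, while in the right panel REST at 35.8 times stands above all other libraries.

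Over the whole set Ring1b reads were less paired between strands than REST reads. The gel-selected sizes of these libraries differed, and the part of fragment size in this contrast was not tested. Ring1b pairing in the set was 2.71 (2.64 to 2.77). It was 2.79 (2.65 to 2.94) in REST regions below 20 times without Ring1b or H4K20me3 and 2.10 (2.06 to 2.14) in those with both. The 18 regions of the set in a Ring1b region wider than 3 kb held 7943 of the 22197 widely spaced Ring1b pairs that form the divisor. Ring1b pairing in these 18 was 1.39 (1.32 to 1.47) and REST pairing 7.45 (6.49 to 8.56). A few wide Ring1b regions thus lowered the pooled 2.71, and its comparison with 2.79 was not repeated without them. In the 26 regions that also overlapped a REST call made against the pooled reads of the other 3 libraries, Ring1b pairing was 1.43 (1.24 to 1.65) and REST pairing 10.9 (10.1 to 11.7). In the 74 that overlapped MCAF1 regions, Ring1b pairing was higher than in the whole set, at 3.92 (3.68 to 4.16), and REST pairing lower, at 3.90 (3.55 to 4.28), so both were alike there. In the 156 regions with the lowest REST folds they were also close, at 2.96 (2.83 to 3.10) for Ring1b and 3.23 (3.05 to 3.44) for REST. In the 206 REST regions of 20 times or more without Ring1b or H4K20me3, Ring1b pairing was 4.53 (4.06 to 5.06), from few reads.

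MCAF1, which the choice of regions did not use, was moderately raised in most of the set. MCAF1 reads in the highest REST window ran from 2 to 71 with a median of 23, and their fold from 0.417 to 11.5 with a median of 3.07. The fold was at least 2 in 390 of the 468 regions. Its 10th percentile was 1.70 in the set and 0.855 in REST regions below 20 times without Ring1b or H4K20me3, where its median was 1.74. Summed over the regions, MCAF1 density was 4.70 times the genome mean (4.62 to 4.79), against 2.60 times (2.56 to 2.64) in REST regions below 20 times without Ring1b or H4K20me3 and 6.53 times (6.44 to 6.62) in those with both. The median MCAF1 background was 1.55 times the genome mean both in the set and in REST regions without Ring1b or H4K20me3. Within 200 bp of the REST centre, MCAF1 density was 6.37 times the genome mean (6.21 to 6.54) in the set. Without Ring1b or H4K20me3 it was 3.87 times in REST regions below 20 times and 5.04 times (4.82 to 5.26) in the stronger ones. Whether these reads reflect MCAF1 itself was not tested, since no input library was analysed.

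Of the 468 regions, 74 overlapped an MCAF1 region (15.8%, 12.6% to 19.4%), beside 12.7% of all REST regions and 0.0726% of covered windows past the limit for MCAF1. The share was 1.48% (0.879% to 2.33%) in REST regions below 20 times without Ring1b or H4K20me3, and 30.9% (27.0% to 35.0%) in those with both. At a REST fold from 10 to 15 it was 23.6% (16.8% to 31.5%) in the set, 1.54% (0.669% to 3.02%) without and 39.1% (33.2% to 45.1%) with both. The share moved with the processing. It was 51.7% with the genome mean as the only background, and 2.25% with all libraries thinned to the depth of Ring1b, both over partly other regions (559 and 712), and the cause was not tested.

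Ring1b sites of the set also had MCAF1 more often than Ring1b sites without REST or H4K20me3. Of the 469 Ring1b regions that overlapped the set, 25 of which reached an H4K20me3 region elsewhere along their length, 76 overlapped an MCAF1 region (16.2%, 13.0% to 19.9%), against 398 of the 5216 Ring1b regions without a REST or H4K20me3 region (7.63%, 6.92% to 8.38%). Over all 10580 Ring1b regions, many of them with H4K20me3, the share was 11.1%. Among those with a Ring1b fold from 10 to 15 the shares were 16.8% (11.7% to 22.9%) of 185 and 8.59% (7.42% to 9.87%) of 2085. Median MCAF1 folds at the Ring1b maximum were 3.13 and 2.50, and median H4K20me3 folds 3.18 and 2.95. H4K20me3 was thus also somewhat higher at the sites with REST, and its part in the MCAF1 difference was not tested.

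The folds of the other 3 libraries were also higher in the regions with MCAF1. The 74 had median folds of 13.7 for Ring1b, 10.1 for REST and 3.69 for H4K20me3, and the other 394 regions had 10.1, 9.23 and 3.03. Over the genome mean, without the local background, Ring1b density was 16.8 times (16.1 to 17.6) in the 74 and 15.4 times (15.1 to 15.8) in the 394. REST density was 11.7 times (11.1 to 12.3) in the 74 and 13.4 times (13.1 to 13.7) in the 394. H4K20me3 density was 4.48 times (4.25 to 4.72) and 4.73 times (4.63 to 4.84). The contrast was thus smaller for Ring1b and turned for REST. For H4K20me3 it also turned, with overlapping intervals. Ring1b folds ran against the local REST background (Spearman -0.46 across the 468 regions, a description). Of the 156 regions with the lowest Ring1b folds, 10 were in MCAF1 regions (6.41%, 3.12% to 11.5%), of the middle 156 it was 17 (10.9%, 6.48% to 16.9%), and of the highest 156 it was 47 (30.1%, 23.1% to 38.0%). By REST fold the shares of the groups of 156 were 8.33% (lowest), 17.9% (middle) and 21.2% (highest). MCAF1 density over the genome mean ran the other way across these groups by REST fold. It was 5.40 times (5.25 to 5.57) in the lowest, 4.95 (4.80 to 5.10) in the middle and 3.96 (3.84 to 4.08) in the highest. Across the groups by Ring1b fold it was 4.42, 4.72 and 4.97 times, a smaller rise than in the shares. The highest MCAF1 fold was at chr5:151636501-151638000, with 60 MCAF1 reads (11.5-fold, 8.79 to 14.8), 36 Ring1b reads (26.8-fold), 17 REST reads (12.5-fold) and 18 H4K20me3 reads (interval 2.97-fold to 7.91-fold). It was followed by chr19:36801501-36802500 (61 MCAF1 reads, 10.7-fold), chr7:11922501-11924500 (52 reads, 7.48-fold to 13.1-fold), chr19:40926001-40927000 (62 reads, 9.40-fold) and chr9:117888501-117890000 (53 reads, 9.16-fold). In these 5 regions Ring1b lay between 13.8-fold and 27.7-fold in the REST window.

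**Figure D5:**
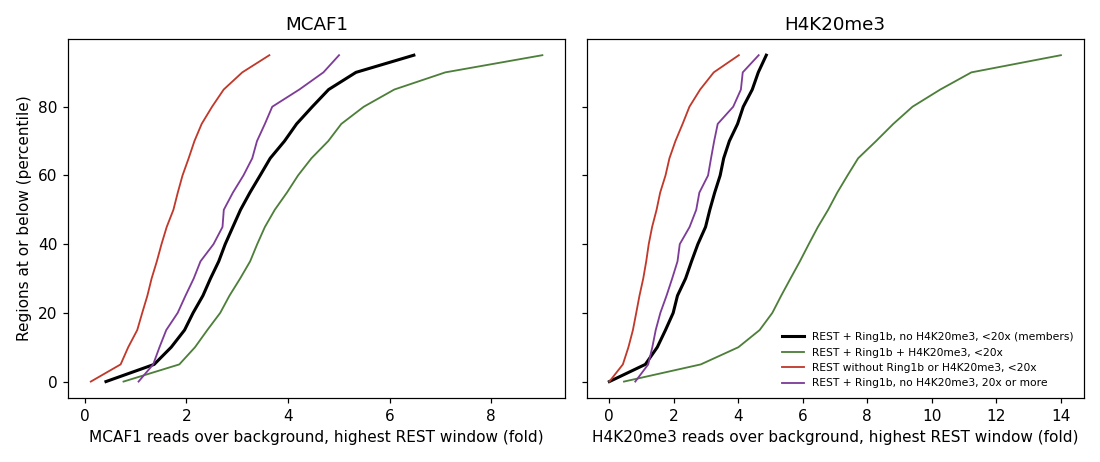
Cumulative distribution (y axis, percentile of regions) of the MCAF1 fold (left) and the H4K20me3 fold (right) in the highest REST window, for 4 sets of REST regions, drawn up to the 95th percentile. The 468 regions (black) lie between REST regions without Ring1b or H4K20me3 and those with both; their H4K20me3 curve ends near 5 because regions with an H4K20me3 call were left out.

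The absence of an H4K20me3 call did not mean that H4K20me3 reads were at background. In the highest REST window H4K20me3 read numbers ran from 0 to 48 with a median of 16, and folds up to 5.61 with a median of 3.12. The fold was at least 2 in 370 of the 468 regions and at least 5 in 15. A window at the genome mean needed 20 reads, or 5.91 times, for an H4K20me3 call, and 0.396% of covered windows passed the limit, as against 27.8% of REST regions that overlapped an H4K20me3 region. The median H4K20me3 fold was 1.46 in REST regions below 20 times without Ring1b or H4K20me3, 2.69 in the 66 stronger regions with Ring1b only and 6.78 in regions below 20 times with both. At the maxima of Ring1b regions without REST or H4K20me3 it was 2.95. Most of the set thus had H4K20me3 reads above background and below the calling limit, and the choice of regions set the upper end of that range. Whether these reads reflect the mark itself was not tested, since no input library was analysed.

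Few of the regions stood out in REST over the other libraries. When the depth-scaled pooled reads of the other 3 libraries served as background where they exceeded the REST library's own, 26 of the 468 regions overlapped a REST call (5.56%, 3.66% to 8.03%), beside 38.7% of all REST regions. The share was 59.1% (56.3% to 61.9%) in REST regions below 20 times without Ring1b or H4K20me3 and 84.8% (73.9% to 92.5%) in the 66 stronger regions with Ring1b only. Pooled reads include the Ring1b reads by which the set was chosen, which lowers the share in it by construction. The same call favours high REST and low Ring1b, MCAF1 and H4K20me3 levels, so the levels of the 26 are given only to describe them.

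These 26 regions had a median REST fold of 16.3, a median Ring1b fold of 7.44, and median MCAF1 and H4K20me3 folds of 1.77 and 1.80. Of the 26, 25 were among the 156 regions with the highest REST folds. Their central share of REST reads was 71.4% (68.6% to 74.2%), against 49.6% (48.6% to 50.6%) in the other 442. These groups were not matched for REST fold, with which the central share rose. It was 61.1% (59.7% to 62.6%) in the 156 regions with the highest REST folds. By REST fold the first of the 26 were chr9:44633001-44634500 (43 REST and 17 Ring1b reads), chr9:49092501-49094000 (33 and 17 reads) and chr17:25739001-25740500 (47 and 15 reads). In these 3, Ring1b read numbers were below the set's median of 21.

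A combined look at MCAF1 and H4K20me3 divided the set further. Both were at 2 times background or more in 322 of the 468 regions (68.8%, 64.4% to 73.0%), and both were below 2 times in 30. In these 30 REST pairing was 7.49 (6.92 to 8.10), the central share 61.8% (58.6% to 65.0%) and the median Ring1b fold 8.95. In the 322 the values were 4.42 (4.26 to 4.60), 49.4% (48.3% to 50.5%) and 10.7. The limit of 2 times was chosen after the values were seen, and the part of the other profiles' level in REST pairing was not tested. Among the 30, the highest smaller folds of REST and Ring1b were at chr11:35641501-35643000, chr5:112815001-112817000 and chr3:27560501-27562000 (26 REST reads, 15.6-fold, 10.2 to 22.9).

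Some regions of the set lay near each other. Another region of the set lay within 10 kb of 12 of them, within 100 kb of 71 and within 1000 kb of 249, by the distance between starts. Any other REST region lay within 10 kb of 49 and within 100 kb of 215, and a REST region of 20 times or more within 100 kb of 39. Chromosome 8 held the most, with 51 (0.437 per Mb of covered sequence, 0.325 to 0.575), followed by chromosome 7 with 41 (0.339 per Mb, 0.244 to 0.460) and chromosome 11 with 40 (0.353 per Mb, 0.252 to 0.481).

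Chromosome 8 took 10.9% of the set, against 5.75% of REST regions below 20 times without Ring1b or H4K20me3 and 6.39% of Ring1b regions. REST read density was 1.18 times the genome mean on chromosome 8 and 1.29 times on chromosome 11. Chromosome 14 had 10 regions (0.0955 per Mb, 0.0458 to 0.176) and the X chromosome 3 (0.0263 per Mb, 0.00542 to 0.0769). Read density on the X chromosome was 0.415 times the genome mean for REST and 0.387 times for Ring1b, so fewer regions and lower read density there cannot be told apart.

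Repeated positions and repetitive sequence touched part of the set. Repeated positions took 16.2% of REST reads in the regions, against 12.6% in the whole library, and 8.15% of Ring1b reads, against 6.31%. With repeated reads kept, 738 regions met the criteria, and 420 of the 468 were found again. Reads with 2 reported locations, which were not used for the calls, fell in 250 regions. In the other 218 REST pairing was 4.37 (4.16 to 4.59) and the share in MCAF1 regions 16.1% (11.4% to 21.6%), and in the 250 they were 5.84 (5.63 to 6.06) and 15.6% (11.3% to 20.7%). The first 100 kb of assembled sequence, beside the unsequenced chromosome ends, held 3 regions, on chromosome 9 at 3037501 and on chromosome 11 at 3001001 and 3003501.

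The number of regions depended on the limits. A looser probability of 1e-06 gave 1595, and a stricter one of 1e-12 gave 173. With windows moved by 250 bp it was 481, and 331 of the 468 (70.7%) were found again. With the genome mean as the only background it was 559, of which 238 of the 468 (50.9%) were found again.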

How the data were processed

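The authors deposited positions of aligned reads, negative where a read lay on the minus strand, with no normalisation or counting over features. Bowtie was the aligner and mm8 the build, per the file headers; at most 2 locations were reported per read and reads with more were dropped; the seed was shorter for REST and Ring1b than for MCAF1 and H4K20me3. No Bowtie version was given in the sources used here.

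Nuclear reads with 1 location were used, 1 per position and strand, moved 75 bp towards the 3′ end and counted in windows of 1000 bp every 500 bp. Background was the larger of the genome mean and the 1 Mb mean over windows with a read of any library (4598722 windows). A fold is the read number of a region's highest window over that background. On the mitochondrial genome, Ring1b positions ran from 2 to 16273 on the plus strand and from 2 to 16271 on the minus strand, so both strands record a read's leftmost base, and minus-strand reads were moved from that base. Positions in the files were read as counting from 0 and are printed counting from 1. Members, lists and measures were chosen with earlier results of these data known. Regions named in the text are the highest by the smaller of both folds (10), by REST, Ring1b and MCAF1 fold (5 each) and by width (3), and those nearest the limits (3 each). Regions without any of these ranks, such as chr3:27560501-27562000, were named after their values were seen. Intervals are Clopper-Pearson for shares and Poisson for reads, at 95%. After the values were seen, the fold bands from 10 to 15, the groups by fold, centrality, MCAF1 and H4K20me3 level or 2-location reads, the 70% limit, the centre from every other read and the set without Ring1b or H4K20me3 were added. The calling step was tested on simulated data. Alternatives changed thresholds, background, shift, repeated reads, overlap, depth and window grid. Versions were numpy 2.4.6, scipy 1.17.1, matplotlib 3.10.9 and Python 3.11.15.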

Additional observations from a re-analysis of the deposited data

Results flagged for a closer look

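Reads with 2 reported locations were left out of all region calls. In the 468 regions their distinct positions numbered 910 in the REST library and 1243 in the Ring1b library. The MCAF1 library had 910 and the H4K20me3 library 522. Any count above the 3 that a count of 0 allows is listed here, a level that libraries of this size pass almost anywhere, and there was no control library. They made up 8.21% of distinct REST positions in the regions (7.71% to 8.74%) and 9.40% of those of Ring1b (8.90% to 9.91%). With repeats counted, the whole libraries held 489276 such positions beside 3129369 distinct reads with 1 location for REST, and 400264 beside 3083311 for Ring1b. The share in the regions was 6.61% for MCAF1 and 5.45% for H4K20me3. A large part lay in chr6:3150501-3152000, with 311 REST, 546 Ring1b, 497 MCAF1 and 321 H4K20me3 positions, where all 4 libraries were raised and the REST reads with 1 location spanned 196 bp.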

How the results depend on the processing

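Of 130 comparisons of 10 results with 13 alternatives, 79 stayed within the interval of the reported value, or within 1.5 times for a count, and 51 moved; 2 of the alternatives, without MCAF1 regions and without the 10 regions with most REST pairs, were chosen after seeing the data. The median distance between maxima was 0 bp under all 13, which the required overlap and the 500 bp grid nearly fix. At 1e-06, 1595 regions gave 10.8% in MCAF1 regions, MCAF1 density 4.38, REST pairing 4.35, Ring1b pairing 2.49, central share 47.6%, 63 calls against the other libraries and median H4K20me3 2.95. At 1e-12, 173 regions gave density 4.92, REST pairing 5.68, central share 53.4%, 8.09% in wide Ring1b regions, 9 calls and H4K20me3 3.34. Without an upper limit, MCAF1 density was 4.48, REST pairing 21.2, Ring1b pairing 2.82, central share 63.4% and calls 82; with a limit of 15 times they were 4.89, 4.38, 3.05, 49.1% and 7. With all reads, 738 regions had REST pairing 4.76, Ring1b pairing 2.47 and central share 49.6%. With the genome mean as background, MCAF1 regions took 51.7%, MCAF1 density was 4.51, REST pairing 4.06, Ring1b pairing 2.94, central share 48.2%, calls 9 and H4K20me3 3.84. At one depth, 712 regions had 2.25% in MCAF1 regions, density 4.39, REST pairing 4.62, Ring1b pairing 2.51, central share 49.7%, 15 calls and H4K20me3 3.73. With the grid moved by 250 bp, REST and Ring1b pairing were 5.06 and 2.78. Outside MCAF1 regions they were 5.43 and 2.54, at density 4.24 and a share of 0% by construction. Without the 10 regions with most pairs, REST pairing was 4.86. The cause of these shifts was not tested. No paired analysis was possible because each antibody had 1 library. No result moved with a shift of 50 bp or with H4K20me3 regions at 1e-06 left out. An overlap of at least 500 bp gave the same 468 regions by construction, since all boundaries lie on that grid, and says nothing on stability. The median region had 19 REST reads, against 14 needed at the genome mean.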
